A study of Rattus norvegicus with 24 samples.

Results

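The comparison set infarcted rat left ventricle that carried a microneedle patch against left ventricle of sham-operated rats. Its 12 libraries, 6 labelled Microneedle patch and 6 labelled Sham, were chosen by the treatment label out of 24 libraries in all. The groups shared the Sprague Dawley strain, an outbred laboratory rat, and the day of sampling, day 7 after infarction and patch implantation. Microneedle patch hearts had an infarct and a patch held in the tissue by needles that lock themselves in place, a design modelled on the bee sting. Sham hearts were operated controls, and the labels do not say which part of their ventricle was taken. The 6 MI libraries, infarct with no patch, served to find changes that the untreated infarct does not show, and the 6 libraries with a sutured patch are given only beside them. The labels name no sham-operated heart with a patch, so the infarct and the patch act together in the microneedle group. Nothing in the labels says that different libraries are different rats. The p-values below therefore speak only of the spread among these libraries, part of which may be technical.

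In a myocardial infarction a stretch of heart muscle dies because its artery is closed. In rats the first week is the time in which dead muscle cells are cleared by macrophages while fibroblasts turn into myofibroblasts and lay down collagen. Tissue from the infarct therefore holds a different mixture of cells from healthy ventricle, with less muscle and more immune and scar-forming cells. In bulk RNA of this kind, fewer cells of a type and less RNA per cell cannot be told apart. The table gives rat Ensembl gene IDs, and the files used here do not pair them with gene names. The table of RefSeq genes held no Ensembl IDs, so 0 of the 32883 IDs could match it. Genes are therefore described in groups defined by their behaviour, 4 IDs are given in full, no sequence is printed, and the labelled tissue was not checked against muscle, immune or fibroblast markers.

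Sham libraries were shallower, with 5443782 to 11757562 counts against 13590783 to 14552623 with the microneedle patch. Levels are given as counts of a gene relative to the total of its library (CPM). A floor of 3 counts equalled 0.255 to 0.551 CPM in Sham and 0.206 to 0.221 CPM in microneedle libraries. These floors cover counting error only. Sham replicates 4 and 5 had the fewest genes with a count, 14079 and 13635, against 16223 to 16449 in the other Sham libraries and 16877 to 17380 in the microneedle libraries. Depth and the Sham group cannot be told apart in the design. Values from libraries thinned to the smallest total are given for some results, among them the distances and the steep rises and falls. Genes defined by at most 3 counts in a group were not sought again in thinned libraries. Sham libraries also varied more, with a biological coefficient of variation of 52.5% against 33.1% with the microneedle patch and 21.3% in MI. No pair of libraries within these groups agreed within sampling noise.

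The microneedle patch libraries lay farther from Sham than the libraries of the untreated infarct did. The distance of a library from Sham was taken as the root mean square difference in log2 CPM from the mean Sham profile over all 14540 genes tested. Microneedle replicates 1 to 6 stood at 1.48, 1.60, 1.58, 1.53, 1.52 and 1.55. The MI libraries stood at 1.09, 1.20, 1.37, 1.27, 1.21 and 1.22, so that the groups did not overlap. The mean distance was 1.54 ± 0.043 with the microneedle patch and 1.23 ± 0.093 in MI (SD, n = 6 each). The difference of 0.32 log2 units was the largest that any split of these 12 libraries gives (two-sided p = 0.00216 in an exact permutation test, which cannot go lower with 924 splits). Sutured patch libraries lay between 1.27 and 1.62, with a mean of 1.40 ± 0.129 (SD, n = 6).

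Sham libraries were themselves uneven on this scale. Measured from the mean of the other 5, Sham replicates 1 to 6 lay at 0.85, 0.59, 0.84, 1.18, 1.57 and 0.62. Sham replicate 5, the shallowest library, was thus as far from the other Sham libraries as the microneedle libraries were from Sham. Without Sham replicates 4 and 5 the remaining 4 lay between 0.505 and 0.919, the MI libraries between 1.09 and 1.37, and the microneedle libraries between 1.46 and 1.58. With all libraries thinned to the smallest total, the microneedle libraries lay between 1.41 and 1.53 and the MI libraries between 1.04 and 1.31.

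**Figure D1:**
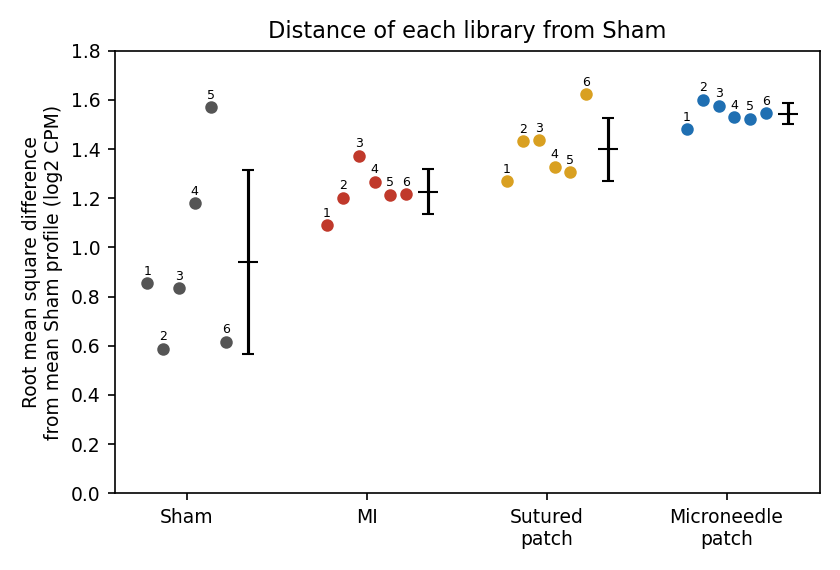
Distance of every library from the mean Sham profile, as root mean square difference in log2 CPM (vertical axis), by group; points are libraries labelled with their replicate number, and the bar beside them is the mean ± SD of 6. Microneedle libraries sit between 1.48 and 1.60, above all MI libraries (1.09 to 1.37), while Sham replicate 5 sits at 1.57.

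Within the microneedle group the make-up of the distance varied. Each library's difference from Sham was split into a part along the line from the Sham mean to the MI mean, on which Sham is 0 and MI is about 1, and a part off that line. Microneedle replicates 3, 4 and 5 lay at 1.16 along the line and 0.78, 0.68 and 0.67 log2 units off it. Replicates 1, 2 and 6 lay at 1.002, 0.94 and 1.004 along the line, and 0.895, 1.16 and 0.998 units off it. The first set was thus farther along the infarct direction, and the second was farther away from it. MI libraries, each measured against a line drawn without it, lay 0.37 to 0.47 units off the line and between 0.81 and 1.13 along it. All 6 microneedle libraries therefore had a larger part off the line than any MI library. The same held for all 6 sutured patch libraries, which lay 0.52 to 1.01 units off the line and overlapped the microneedle range. The line was drawn from the MI libraries, so this is a description with no test.

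**Figure D2:**
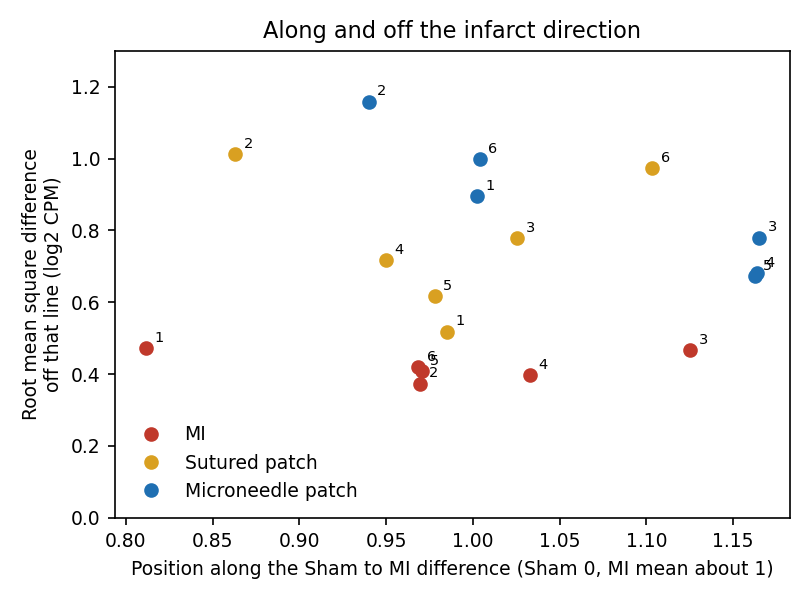
Position of each infarct library along the Sham to MI difference (horizontal axis, Sham 0 and MI mean about 1) and root mean square difference off that line in log2 CPM (vertical axis). Points are libraries labelled by replicate; the 6 microneedle libraries lie 0.67 to 1.16 off the line and the 6 MI libraries 0.37 to 0.47.

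Genes were tested with edgeR's quasi-likelihood test on the counts and called changed at a Benjamini-Hochberg adjusted p below 0.05. The spread of a gene was estimated over all 24 libraries as if equal in the 4 groups, although Sham libraries varied most and MI libraries least. With the microneedle patch 7494 of 14540 genes (51.5%) differed from Sham, 3763 higher (25.9%) and 3731 lower (25.7%). With only Sham and microneedle libraries in the fit, 5720 genes were called, and the cause of this drop was not tested. In MI 6504 genes (44.7%) differed from Sham. The comparisons share the Sham libraries, so their counts are set side by side and not compared by a test. The called genes covered a large part of the RNA. Genes higher than Sham held 51.3% ± 0.85 of all counts in microneedle libraries and 16.9% ± 1.12 in Sham (SD, n = 6 each). Genes lower than Sham held 15.3% ± 0.45 of counts with the microneedle patch and 49.6% ± 4.21 in Sham. These shares differ by the way the genes were selected. For 2177 genes (15% of those tested) all 6 microneedle libraries lay above all 6 Sham libraries, and for 1525 genes (10.5%) all 6 lay below.

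Among the most abundant genes the balance of rises and falls followed the group in which abundance was measured. Of the 100 genes tested with a mean of 1000 CPM or more in Sham, 10 rose and 69 fell with the microneedle patch. Of the 93 genes with such a mean in the microneedle libraries, 71 rose and 4 fell. By the mean over all 24 libraries, 18 of which are infarct libraries, it was 44 and 27 of 84 genes. A cut on a mean admits genes through the group where they are high, so these counts only describe the genes and show no balance of direction. In each library the 10 most abundant genes held 12.4% to 13.4% of counts in microneedle libraries and 5.61% to 8.68% in Sham, and the groups did not overlap. The 100 most abundant genes held 26.2% to 28.2% with the microneedle patch and 20.3% to 25.5% in Sham.

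Steep falls from Sham were called far more often with the microneedle patch than in MI. A fall of at least 16-fold was called for 221 genes with the microneedle patch and for 9 in MI. Rises of at least 16-fold were called for 293 genes with the microneedle patch and for 193 in MI. At 4-fold the falls numbered 1116 and 394, and the rises 1233 and 932. With any single library left out, falls of at least 16-fold numbered 200 to 249 with the microneedle patch and 7 to 21 in MI, where they were 21, 15 and 14 without MI replicates 1, 2 and 6. The median level of the 221 genes was 30.4 CPM in Sham, 7.15 CPM in MI and 3.64 CPM with the sutured patch. With the microneedle patch it was 1.08 CPM, above the floor. A Sham mean of at least 10 CPM was reached by 152 of them, whose median was 68 CPM in Sham and 2.41 CPM with the microneedle patch. Of the 221 genes, 182 were also called lower in the direct test of the microneedle patch against MI, where 7.41% of all genes were called lower and 7.12% higher. The set was chosen by the microneedle values, which favours such calls. In the same 221 genes the median log2 fold change from Sham was -4.73 with the microneedle patch, -3.10 with the sutured patch and -1.98 in MI. Only 13 of them (5.88%) were called lower with the microneedle than with the sutured patch, where 0.316% of all genes were called in either direction, so that the steep falls were not shown to be particular to the microneedle patch.

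Among these 221 genes were some that were very abundant on average in the Sham libraries. A total of 71 averaged at least 100 CPM in Sham and 17 averaged at least 1000 CPM, with 8949 CPM as the highest. None of the 221 reached 1000 CPM with the microneedle patch, and the highest mean there was 450 CPM. Together they held 9.96%, 7.30%, 4.09%, 10.7%, 3.25% and 7.51% of counts in Sham replicates 1 to 6. In microneedle replicates 1 to 6 they held 0.284%, 0.238%, 0.132%, 0.258%, 0.355% and 0.185%. Every microneedle library was thus far below every Sham library. The genes were chosen by this fall in the same libraries, so the separation only describes them. Sham replicates 1 and 4 held the most and Sham replicates 3 and 5 the least. MI libraries held 0.888% to 3.70% and sutured patch libraries 0.114% to 1.99%, so that the lowest sutured library reached below the microneedle range. Without Sham replicates 1 and 4, left out after the data were seen, falls of at least 16-fold numbered 170 with the microneedle patch and 16 in MI. With thinned libraries these numbers were 193 and 6, and without Sham replicates 4 and 5 they were 225 and 10.

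**Figure D3:**
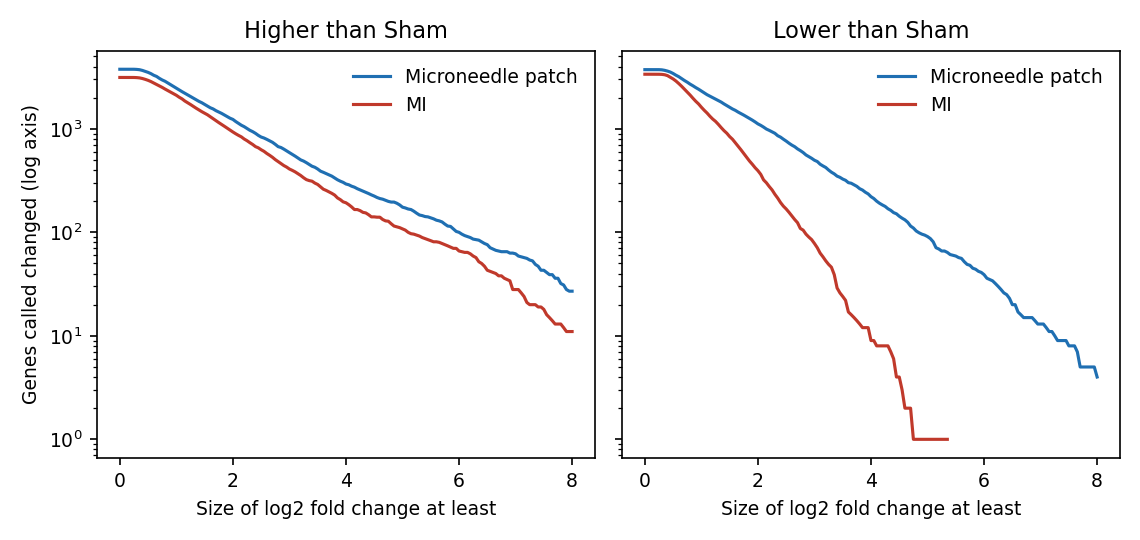
Number of genes called higher (left) or lower (right) than Sham (vertical axis, logarithmic) with a log2 fold change of at least the size on the horizontal axis, for the microneedle patch and for MI. The curves are close for rises (293 and 193 genes at a log2 size of 4) and far apart for falls (221 and 9 genes).

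Most of the steepest rises concerned genes that were nearly silent in Sham. The 293 genes at least 16-fold higher had a median level of 0.11 CPM in Sham, under the floor, so that their fitted fold changes depend on how low counts are treated. With thinned libraries, rises of at least 16-fold were called for 216 genes with the microneedle patch and for 131 in MI. The median of the 293 genes was 3.06 CPM in MI, 5.61 CPM with the sutured patch and 7.34 CPM with the microneedle patch. Of them 131 averaged at least 10 CPM with the microneedle patch, with medians of 62.5 CPM there and 1.46 CPM in Sham. All 293 together held 0.232% to 0.373% of counts in Sham libraries and 7.46% to 9.24% in microneedle libraries. MI libraries held 4.12% to 8.39% in these 293 genes, which overlapped the microneedle range. Of the 293, 263 were also called in MI against Sham, where 44.7% of all genes were called. Both comparisons use the same Sham libraries, in which most of these genes were nearly silent, and this favours such calls. A group of 100 genes had at most 3 counts over the 6 Sham libraries and averaged at least 1 CPM with the microneedle patch. Of these, 92 passed the filter on low counts and all 92 were called higher. Their median was 1.86 CPM with the microneedle patch, 0.972 CPM in MI and 1.82 CPM with the sutured patch. The group of 100 held 0.0350% to 0.0473% of counts in microneedle libraries and 0.00841% to 0.0204% in MI libraries, with no overlap. Sutured patch libraries held 0.0342% to 0.128%, which covered the microneedle range. In the opposite direction, 33 genes averaged at least 1 CPM in Sham and had at most 3 counts over the 6 microneedle libraries. Of these 14 passed the filter and all 14 were called lower. Both groups were chosen by the difference that was then called, so these counts only describe them.

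Genes that changed here and not in the untreated infarct were sought next. Of the 7494 genes, 2311 were not called in MI against Sham, 1165 of them higher and 1146 lower with the microneedle patch. A missed call in MI does not show that MI equals Sham, so the difference between the microneedle patch and MI was tested directly. In 789 genes (5.43% of those tested) this difference was called as well, in the same direction. Of these, 389 rose with the microneedle patch and 400 fell, and they are referred to as microneedle-group genes. The level in MI lay within 1.5-fold of Sham for 564 of them (71.5%), namely for 321 of the 389 that rose and 243 of the 400 that fell.

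The rises of microneedle-group genes were moderate and the falls steep. Those that rose had a median log2 fold change of 0.92 from Sham with the microneedle patch and 0.13 in MI, and 69 of 389 changed at least 4-fold. Those that fell had medians of -2.22 with the microneedle patch and -0.41 in MI, and 222 of 400 changed at least 4-fold. Over all genes tested the corresponding medians were -0.01 and -0.04. The rising genes had a median level of 21.1 CPM in Sham and 22.6 CPM in MI, against 33 CPM with the sutured and 38.4 CPM with the microneedle patch. The falling genes had 33.4 CPM in Sham and 23.4 CPM in MI, against 12.4 CPM with the sutured and 6.46 CPM with the microneedle patch.

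By library, the 389 rising genes held 3.83%, 4.76%, 3.48%, 3.38%, 3.26% and 4.35% of counts in microneedle replicates 1 to 6. They held 1.70% to 2.60% in Sham and 2.07% to 2.57% in MI, and every microneedle library was above every Sham and MI library. The 400 falling genes held 1.17%, 0.82%, 1.06%, 1.37%, 1.53% and 0.87% in microneedle replicates 1 to 6. In Sham they held 7.04%, 3.73%, 2.31%, 6.97%, 2.33% and 3.52% in replicates 1 to 6. All microneedle libraries were below all Sham libraries and below the MI range of 2.25% to 4.82%. Sham replicates 1 and 4 stood above the other Sham libraries. Both sets of genes were chosen by their differences between these groups, so the separation of the shares only describes them. Replicates 2 and 6 had the highest shares of the rising genes and the lowest shares of the falling genes. Replicates 4 and 5 had the lowest shares of the rising genes and the highest of the falling genes.

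**Figure D4:**
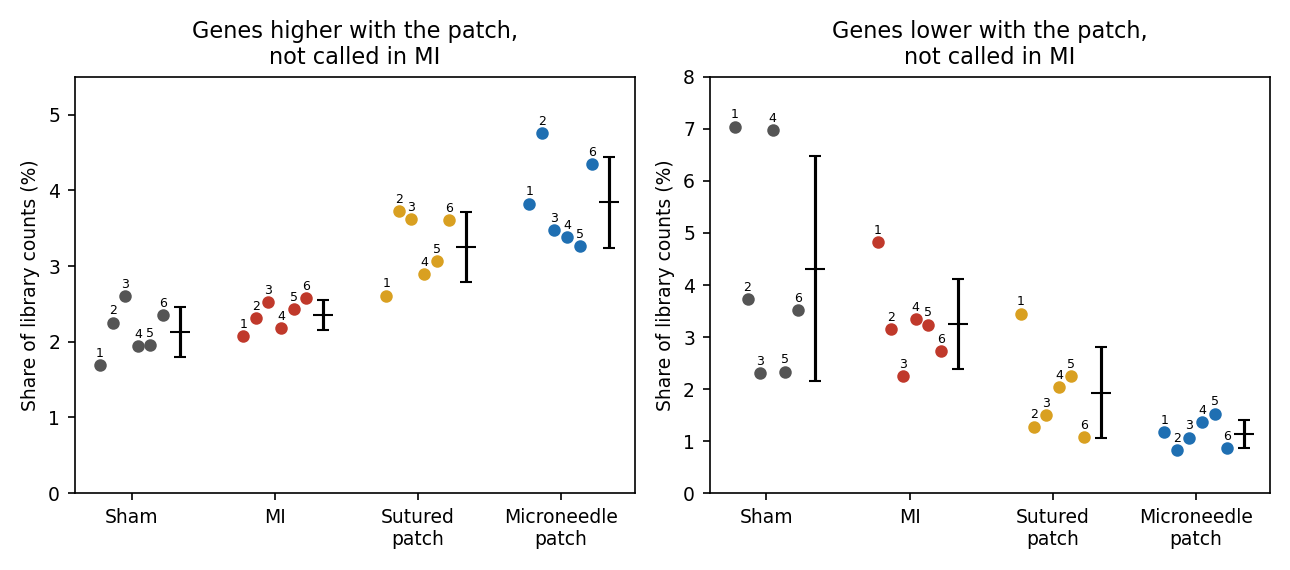
Share of all counts of a library (percent, vertical axis) held by the 389 microneedle-group genes that rose (left) and the 400 that fell (right), by group; points are libraries labelled by replicate, bars are mean ± SD of 6. The genes were selected in these libraries; microneedle libraries hold 3.26% to 4.76% in the rising genes and 0.82% to 1.53% in the falling genes, with Sham replicates 1 and 4 near 7.04% and 6.97%.

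The strength of the pattern in single microneedle libraries followed the same order. Replicate 2 was above every Sham and MI library in 361 of the 389 rising genes (92.8%), replicate 6 in 356 and replicate 1 in 332. Replicates 3, 4 and 5 were above them in 268, 246 and 196. Among the 400 falling genes, replicates 2 and 6 were below every Sham and MI library in 309 and 308, and replicate 5 in 175. All 6 microneedle libraries lay above all 12 Sham and MI libraries in 123 rising genes, and below all 12 in 137 falling genes. Over all genes tested the shares of such genes were 3.55% and 3.86%. The rising and falling genes were chosen by called differences from Sham and MI in these libraries. That choice favours such positions, so all these counts only describe the genes. The 137 falling genes had medians of 43.2 CPM (Sham), 25.1 CPM (MI), 12.8 CPM (sutured patch) and 5.76 CPM (microneedle patch). The 123 rising genes had 17.4, 21, 36.9 and 41.4 CPM in the same order.

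The sutured patch stood beside the microneedle patch in most of these genes. The mean level with the sutured patch lay between those of MI and the microneedle patch in 295 of 389 rising and 372 of 400 falling genes. The same held for 7055 of the 14540 genes tested. The rule that chose the microneedle-group genes asks for a called difference between MI and the microneedle patch, which favours a level in between. Of the 789 genes, 3 were called in the direct test of the microneedle against the sutured patch, 2 higher and 1 lower, where 0.316% of all genes were called. With so few calls in that test, no difference between the patches was shown in the remaining genes, which does not show that the patches act alike. The median log2 fold change from Sham was 0.67 with the sutured patch for the rising genes and -1.30 for the falling genes.

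The number of microneedle-group genes depended on single libraries. It was 369 without MI replicate 1, 437 without microneedle replicate 2 and 463 without microneedle replicate 6. It was 1320 without Sham replicates 4 and 5, of which 681 were among the 789. With thinned libraries it was 657, of which 539 were among the 789. Among other tools DESeq2 gave 1014, of which 729 were among the 789, and limma-voom with quality weights gave 1226, of which 564 were.

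The 2 microneedle-group IDs with the largest rise from Sham among those of at least 10 CPM were ENSRNOG00000048402 and ENSRNOG00000060898. For all 4 printed IDs, the rule that chose them fixed on which side of 0.05 their edgeR adjusted p-values fell in the main fit. Taking the largest changes also favours large fold changes and ratios, so these values only describe the IDs. ENSRNOG00000048402 stood at 0.451, 36.8, 0.722, 4.11, 10.8 and 7.51 CPM in microneedle replicates 1 to 6. In Sham it had 3 counts in replicate 1 and 0 in the other 5 libraries. All 6 microneedle libraries were above Sham, but replicates 1 and 3 lay within the MI range of 0 to 2.06 CPM. Its pooled level was 180 times that of Sham, with an exact 95% interval of 61.4 to 875 that covers counting error only. The edgeR test gave adjusted p = 0.000224 against Sham, adjusted p = 0.101 for MI against Sham and adjusted p = 0.0186 for the microneedle patch against MI. The last call was lost when microneedle replicate 2 (adjusted p = 0.0817) or MI replicate 1 (adjusted p = 0.0514) was left out. Other settings in which the ID was tested gave adjusted p-values from 0.0126 to 0.0472. It did not pass a stricter filter on low counts, or the filter in a fit of Sham and microneedle libraries alone. With the sutured patch it ranged from 0.208 to 13.95 CPM.

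ENSRNOG00000060898 was high in 2 microneedle libraries only, with 38.5 CPM in replicate 1 and 24.4 CPM in replicate 5. The other 4 microneedle libraries lay at 0.478, 0.722, 1.06 and 0.595 CPM, all above the Sham range of 0.191 to 0.397 CPM but with 2 of them below the MI range of 0.707 to 1.46 CPM. A sutured patch library, replicate 4, reached 23.96 CPM, and the others lay at 0.831 CPM or below. Its log2 fold change from Sham was 5.15 (SE 1.33, edgeR adjusted p = 0.00215). The call was lost with limma-voom and quality weights, at 2.69 (adjusted p = 0.166). Over the alternative settings in which the ID was tested, adjusted p ran from 1.21e-05 with DESeq2 to that value. The microneedle patch against MI passed narrowly, with a log2 fold change of 3.37 (SE 1.14, adjusted p = 0.0487). That call was lost in 12 of the 18 fits that left out a library, with adjusted p-values up to 0.156 without microneedle replicate 1. It was also lost in 3 of the 9 other settings in which the ID was tested, among them the replicate block (adjusted p = 0.189). With thinned libraries, and in a fit of Sham and microneedle libraries alone, the ID did not pass the filter on low counts.

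The 2 largest falls were those of ENSRNOG00000013097 and ENSRNOG00000050450. ENSRNOG00000013097 had 27.8, 13.5, 3.79, 52.6, 1.72 and 7.50 CPM in Sham replicates 1 to 6 and 1.47 to 14.1 CPM in MI. Microneedle replicates 1, 2 and 4 had 0 counts, replicates 3 and 6 had 1 count each and replicate 5 had 3. Every microneedle library was therefore below every Sham and every MI library. Its log2 fold change was -7.99 from Sham (SE 1.10, edgeR adjusted p = 1.34e-06) and -6.38 from MI (SE 1.08, adjusted p = 0.000817), while MI against Sham gave -1.61 (SE 0.72, adjusted p = 0.072). With the sutured patch it lay between 0.200 and 4.09 CPM.

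ENSRNOG00000050450 was very uneven in Sham, with 73.6 and 49.2 CPM in replicates 1 and 4 and 4.67, 0.804, 0.382 and 2.44 CPM in replicates 2, 3, 5 and 6. Microneedle replicates 1 to 4 had 0 counts, replicate 6 had 1 and replicate 5 had 7, or 0.496 CPM, which was above the lowest Sham library. The MI libraries lay between 2.42 and 8.13 CPM, above every microneedle library. The log2 fold change was -7.68 from Sham (SE 1.35, edgeR adjusted p = 3.82e-05) and -5.69 from MI (SE 1.32, adjusted p = 0.00616). For MI against Sham it was -1.996 (SE 0.94, adjusted p = 0.0856), although the median was 5.99 CPM in MI and 3.55 CPM in Sham. Without Sham replicates 1 and 4 the microneedle log2 fold change from Sham was -4.32 (edgeR adjusted p = 0.00171), so that these libraries set much of its size. In that fit the log2 fold change from MI was -5.67, a larger fall than from Sham. MI thus lay above the remaining Sham libraries, and the fitted fall in MI rested on Sham replicates 1 and 4. Over the alternative settings in which the ID was tested, adjusted p ran from 2.7e-09 with DESeq2 to 0.00646 with limma-voom and quality weights. It did not pass the filter on low counts in a fit of Sham and microneedle libraries alone.

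**Figure D5:**
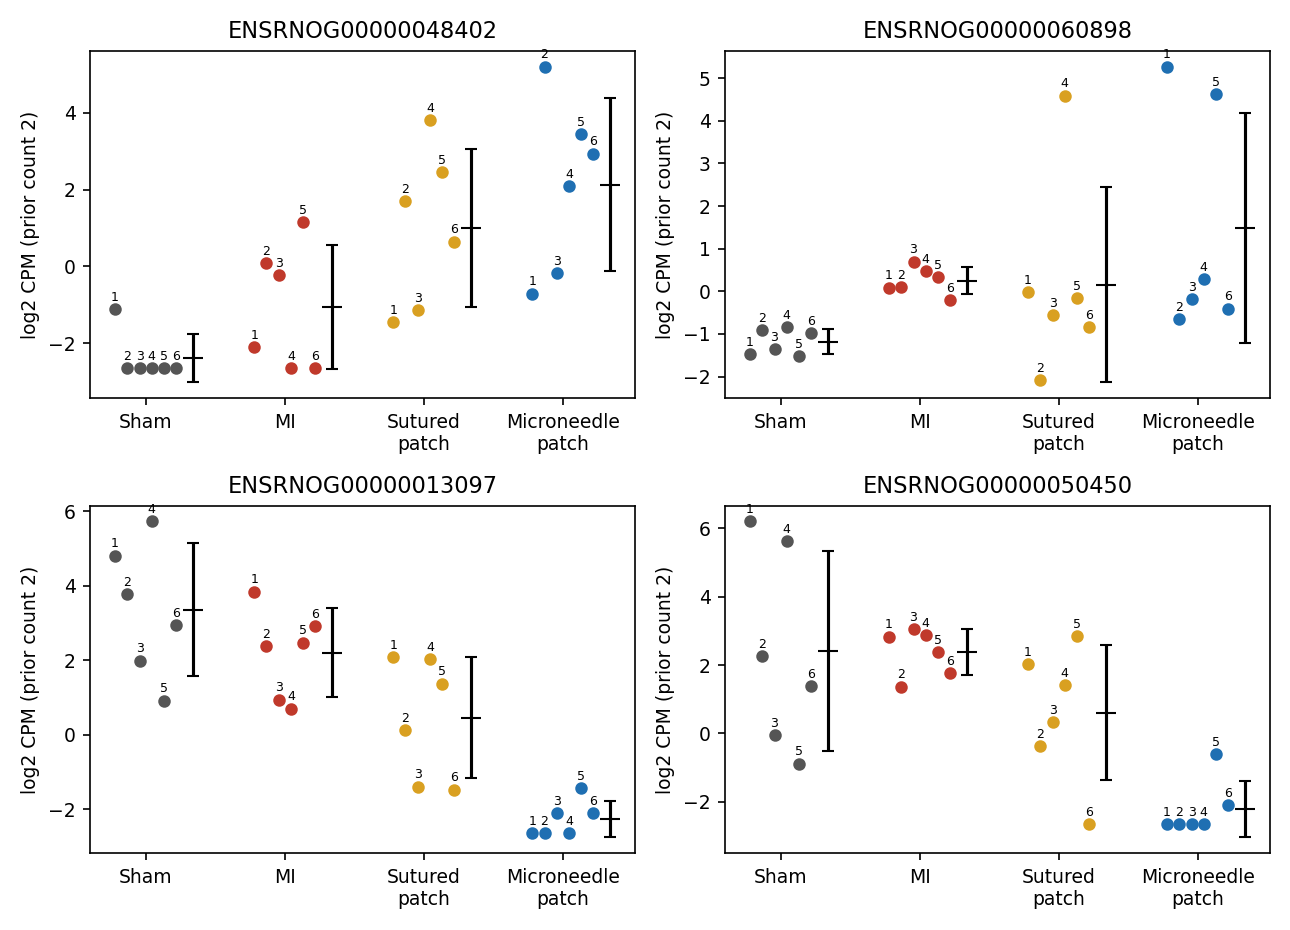
Log2 CPM with a prior count of 2 (vertical axis) of the 4 printed gene IDs in every library, by group; points are libraries labelled by replicate, bars are mean ± SD of 6. The 2 upper IDs rise in some of the microneedle libraries (0.451 to 36.8 CPM and 0.478 to 38.5 CPM), and the 2 lower IDs lie near 0 counts in all of them (at most 0.213 and 0.496 CPM).

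Genes that had changed in the untreated infarct and stood near Sham with the microneedle patch were fewer. They numbered 156 (1.07% of those tested): called in MI against Sham, called the other way in the microneedle patch against MI, and not called in the microneedle patch against Sham. Of these, 54 were raised in MI and 102 were lowered. The 54 genes had medians of 22.3 CPM (Sham), 44.9 CPM (MI), 21.5 CPM (sutured patch) and 20.5 CPM (microneedle patch). The 102 genes had 41.8, 25, 37.7 and 42.4 CPM in the same order. The median log2 fold change from Sham with the microneedle patch was 0.01 for the 54 and -0.01 for the 102, which the rule that chose them favours. In MI they stood at 1.01 and -0.68. By library, the 54 genes held 0.209% to 0.474% of counts with the microneedle patch, 0.287% to 0.420% in Sham and 0.565% to 0.728% in MI. The microneedle libraries thus spanned the Sham range and lay below all MI libraries. The rule that chose the genes favours such shares, here and for the 102 genes. The 102 genes held 0.553% to 0.800% with the microneedle patch, 0.531% to 0.832% in Sham and 0.411% to 0.477% in MI. This count moved most with single libraries. It was 51, 97, 70 and 90 without MI replicates 1, 2, 4 and 5, and 52, 236, 296 and 65 without microneedle replicates 2, 4, 5 and 6. Without Sham replicates 4 and 5 in turn it was 252 and 373, and with the replicate block it was 250.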

How the data were processed

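RNA of 24 left ventricle libraries was extracted with Trizol and made into libraries with a NEBNext Ultra RNA kit, per the labels' protocols. The authors deposited raw, whole-number counts for each Ensembl gene ID in every library. HISAT2, featureCounts and the build rn6 are named in the submitters' processing notes. The sources used here do not give versions, strand setting, annotation release or the treatment of multi-mapping reads, so overlapping, antisense or near-identical genes may share counts. Columns were matched by the code in each title, and 0 stayed unassigned. Of the 32883 IDs, 0 lacked a gene. The RefSeq table of the assembly GRCr8 gave no Ensembl IDs, so 0 could match. Of the 44 gene and marker lists drawn up for the comparison, 0 were therefore run.

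Counts were filtered with filterByExpr (minimum count 10) of edgeR 4.0.16 in R 4.3.3, which kept 14540 genes holding 99.6% to 99.93% of counts, and scaled by TMM. All 24 libraries entered a fit with 4 group means and 20 residual degrees of freedom, with a robust quasi-likelihood F test and Benjamini-Hochberg adjustment at 0.05. CPM use TMM-scaled totals, log2 CPM a prior count of 2, and the standard error was the size of the log2 fold change over the root of F. IDs to print were the 2 largest changes each way from Sham among microneedle-group genes whose higher mean reached 10 CPM. Alternatives used DESeq2 1.42.0, limma 3.58.1, other scaling, filters and samples, a replicate block, thinned libraries and left-out libraries. Calls were also run on simulated data with 200 changed genes and the same spread in every group. That setting cannot show how the calls behave under the unequal spread of these groups. The groups, lists and classes were chosen with earlier results of these data known.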

Additional observations from a re-analysis of the deposited data

Results flagged for a closer look

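Of 30 sets of 6 values checked with Dixon's test at its 95% critical value, 4 held a library far from the others by that measure. Chance alone flags about 1 in 20 only where values follow a normal distribution, which CPM that are skewed or near 0 do not. A set whose other values are all 0 is flagged whatever the remaining value. All 4 flags concerned CPM of printed IDs, which were chosen for their large changes. For ENSRNOG00000048402, microneedle replicate 2 stood at 36.82 CPM against 0.451 to 10.8 CPM in the other microneedle libraries, and Sham replicate 1 at 0.3036 CPM (3 counts) against 0 in the other Sham libraries. Microneedle replicate 5 had the highest value of both falling IDs. It stood at 0.2126 CPM for ENSRNOG00000013097, against 0 to 0.0744 CPM in the others. It stood at 0.496 CPM for ENSRNOG00000050450, against 0 to 0.0744 CPM. Of the flagged values, 0.3036 and 0.2126 CPM rest on 3 counts each.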

How the results depend on the processing

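The number of genes changed between the microneedle patch and Sham ran from 5720 to 8044 over the tools, scalings, filters, sample choices and depths tried, except with a 2-fold minimum (4787), and from 7139 to 8038 with single libraries left out. The difference in distance from Sham between the microneedle patch and MI stayed positive in all 7 alternatives, from 0.24 without Sham replicates 1 and 4 to 0.34 with a prior count of 0.5 (0.0578 on the scale of 1 minus Spearman's correlation), and from 0.28 to 0.35 with a library left out. The count of 789 microneedle-group genes was 1226 with limma-voom and quality weights, 465 with a 2-fold minimum and 1320 without Sham replicates 4 and 5, and ran from 369 to 1171 with a library left out. With a 2-fold minimum 28.8% of them rose, against 49.3% as reported, 42.4% to 55.7% in the other settings with all libraries or 2 left out, and 44.4% to 59.9% with a library left out. The 156 genes near Sham became 277 with DESeq2, 86 without a filter, 896 with limma-voom and quality weights, 250 with the replicate block, 43 with a 2-fold minimum, 383 without Sham replicates 4 and 5 and 460 without Sham replicates 1 and 4, and ran from 51 to 373 with a library left out. Apart from fewer samples, stricter thresholds and fewer or more genes tested, the cause of these shifts was not tested. The groups share replicate numbers in the titles, but deviations of same-numbered microneedle and Sham libraries correlated from -0.137 to 0.234 and 0 of 6 correlated best with their own number. With the replicate block 7479 genes differed from Sham and 940 were microneedle-group genes. Low Sham depth limits what can be said of genes under about 0.551 CPM.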
